A study of Canis lupus familiaris with 20 samples.

Results

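Most genes that are abundant in dog osteosarcoma cells took a smaller part of the RNA of the exosomes those cells released. The 100 genes described here went the other way by the measure that chose them. They were chosen by their ratio of exosome to cell level, out of 24579 genes. A gene needed at least 50 CPM (the count scaled to a common library total) in all 8 cell libraries and at most 1% of the counts of every exosome library, which left 2598 genes. For each of 4 lines the ratio of exosomes to cells was the mean exosome CPM plus 1 over the mean cell CPM plus 1. The median ratio over the lines was above 1 for 207 genes, and the 100 highest were kept. They are numbered here by that median, member 1 being the highest at 4.84. Member 100 stood at 1.26 and the gene next in order, left out, at 1.24.

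The study sought an exosomal gene signature for dogs with osteosarcoma, a malignant bone tumour. Cells of OSCA-8, OSCA-78, OS-2 and OS-1 gave 2 libraries each. Exosomes from culture supernatants gave 4 libraries for OS-1 and 2 for every other line, among them OSCA-32, which has no cell library here. The labels give no treatment for any group, and they do not say whether replicates are separate cultures. The p-values therefore reflect only how far these libraries scatter, and that scatter may be technical.

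Exosomes are small vesicles that form inside endosomes and are set free when these fuse with the cell membrane. They carry proteins and RNA of the cell, from intact messengers to fragments and noncoding RNA. Precipitation reagents such as the ExoQuick used here also bring down other particles from culture medium, and the library kit primes total RNA at random. The table gives Ensembl identifiers that are paired with no gene name, so roles of the members and markers of the lines could not be looked up.

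Total counts ran from 7728553 to 13301840 in cell libraries and from 259078 to 481487 in exosome libraries. In an exosome library 1 count made 2.08 to 3.86 CPM. Members had 6 to 467 counts per exosome library, with medians of 22 to 90, and 390 to 6334 per cell library. Some exosome libraries were dominated by 7 genes, none of them a member, each above 1% of at least 1 exosome library. They took 55.6% and 60.9% of the OS-2 exosome counts, 13.7% to 27.4% in OS-1 replicates 1 and 2, OSCA-78 replicate 2 and both OSCA-8 libraries, and 0.75% to 1.90% in OS-1 replicates 3 and 4, OSCA-78 replicate 3 and both OSCA-32 libraries. In cells they took at most 0.126%.

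The first question was how much of each library the members made up. Together they made up 0.919% to 1.20% of each cell library. In exosomes their share was 1.70%, 1.84%, 2.10% and 2.21% in OS-1, 1.52% and 1.67% in OSCA-8, and 1.62% and 2.14% in OSCA-78. In OS-2 exosomes it was 0.971% and 0.883%, below both OS-2 cell libraries at 1.196% and 1.202%. The shares in the other 3 lines lay above those of their cells in every library, and OS-2 alone went against the name of a gene set enriched in exosomes. For single libraries counting error was small, as the widest exact 95% interval (Clopper-Pearson) was 1.65% to 1.75%, in OS-1 replicate 1. Intervals cover counting error only. These shares are those that chose the members and carry no test. More vesicles with an RNA and more copies per vesicle cannot be told apart in such bulk libraries, nor can fewer cells of a kind and less RNA per cell.

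The exosome shares differed with the dominant genes. As a share of the counts left without those 7 genes, a measure chosen after seeing the data, the members took 2.05% to 2.26% of all 12 exosome libraries and 0.919% to 1.20% of cell libraries. The means were 2.14% ± 0.0593 in OS-1 (SD, n = 4), 2.22% ± 0.0520 in OS-2, 2.21% ± 0.00157 in OSCA-32, 2.11% ± 0.0872 in OSCA-78 and 2.08% ± 0.0301 in OSCA-8 (n = 2 each). An even sum does not mean even members. On this scale the 11 members called higher in OS-2 exosomes below summed to 11034 and 11561 CPM there and to 1483 to 4393 CPM in other exosomes. The 86 members without a call there summed to 10454 and 10760 CPM in OS-2 and to 15746 to 19594 CPM in other exosomes. OSCA-32 took no part in the ratios of the rule. With all counts its share was 2.17% and 2.20%.

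**Figure D1:**
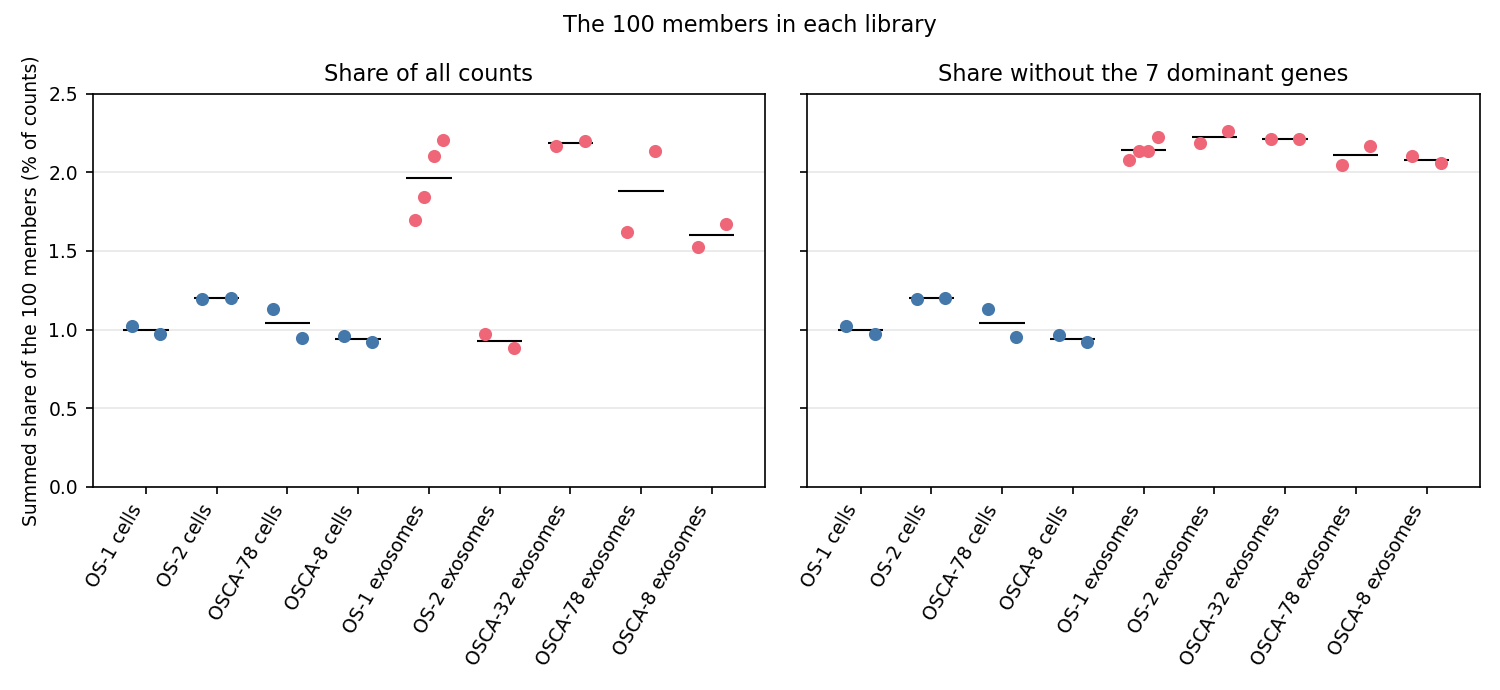
Summed share of the 100 members in each library (y axis, percent of counts) by line and fraction, from all counts (left) and without the 7 dominant genes (right). Points are libraries, blue for cells and red for exosomes, and bars are means. On the left the 2 OS-2 exosome libraries lie below their cells, and on the right all 12 exosome libraries lie between 2.05% and 2.26%. The sum does not show how single members differ between lines.

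By gene, the ratio was above 1 in OS-1 for 99 members (median 1.78), in OSCA-78 for 97 (median 1.72), in OSCA-8 for 97 (median 1.42) and in OS-2 for 11 (median 0.479). Of the other 2498 abundant genes, 217, 214, 138 and 16 had a ratio above 1 in these lines, with medians of 0.383, 0.359, 0.383 and 0.308. In 86 members OS-1, OSCA-78 and OSCA-8 stood above 1 and OS-2 below, and 8 members were above 1 in all 4 lines. Without the 7 dominant genes 64 members were above 1 in OS-2, with a median of 1.12, and 668 of the 2498 others, with a median of 0.727. The ratios with all counts chose the members from these same libraries, so the counts of members here are a description and carry no test. All exosome libraries lay above all cell libraries of the line for 69 members in OS-1, 75 in OSCA-78, 68 in OSCA-8 and 7 in OS-2. In OS-2 both exosome libraries lay below the cells for 80 members, as for 96.7% of the 2598 abundant genes. Without the dominant genes 15 members lay below and 42 above in OS-2, where 1356 of the 2598 abundant genes lay below and 364 (14.0%) above. With all counts 3.46%, 5.58%, 4.23% and 0.577% of the 2598 abundant genes, members included, lay above in OS-1, OSCA-78, OSCA-8 and OS-2.

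The name "enriched" holds on the scale of total counts and not on every scale. By edgeR's quasi-likelihood test of exosomes against cells over 4 lines with TMM scaling, which sets libraries level by the bulk of their genes, the median log2 fold change of members was -0.13. That of all 16211 genes tested was 0.38. At a Benjamini-Hochberg adjusted p under 0.05, 13 members were higher and 11 lower, against 44% and 34.3% of all genes tested. Among the 2598 abundant genes 13 were called higher and 2470 lower, with a median of -1.89. The rule used this contrast, so these counts are a description. With TMM library sizes in the rule itself 30 of the 100 members kept a median ratio above 1, and with RLE size factors 96.

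The members were among the less abundant of the genes that met the cell minimum. Their mean cell level over 4 lines was 62.0 to 247 CPM with a median of 94.4, against a median of 146 in the other abundant genes, whose highest level was 12932 CPM against 247 in members. Of the 100 members, 51 fell in the lowest of 5 equal groups by cell level (58.0 to 94.6 CPM), and 28, 17, 4 and 0 in the next. The cell level entered the ratio, so this too is a description.

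**Figure D2:**
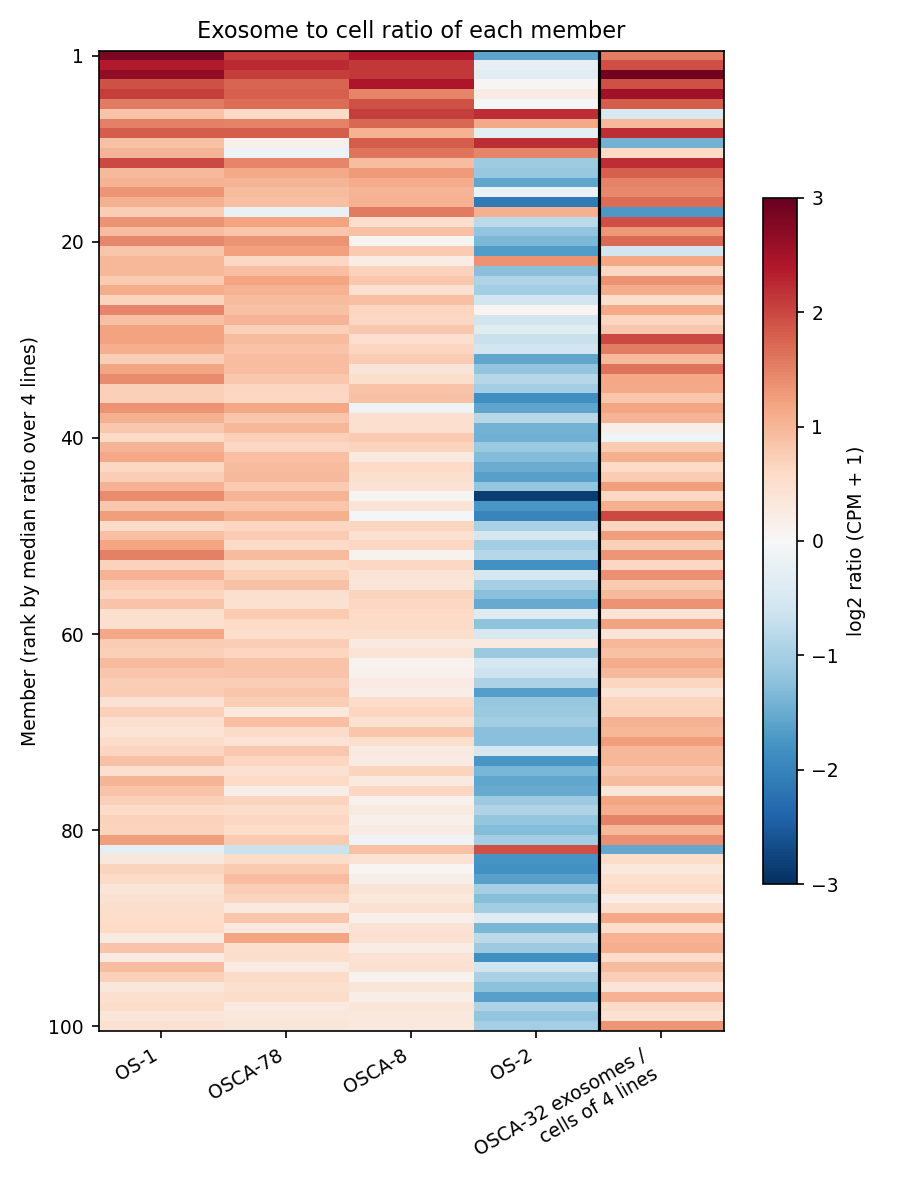
Ratio of exosomes to cells for each member (rows, by rank of the median ratio) in 4 lines and, right of the black line, of OSCA-32 exosomes to the mean cell level of those lines. Colour gives log2 of the ratio of CPM plus 1, red above and blue below 0. The OS-2 column is blue in most rows, and members such as 7, 10, 17 and 82 run opposite to their neighbours in OS-2 and OSCA-32.

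OSCA-32 exosomes gave a look at libraries that the ratios did not use. Against the mean cell level of the other 4 lines, 94 of 100 members were higher in OSCA-32 exosomes, with ratios of 0.303 to 7.40 and a median of 1.98. Of the other abundant genes 329 of 2498 were higher, with a median of 0.375. Both OSCA-32 libraries lay above all 8 cell libraries for 75 members and for 3.56% of the other abundant genes. The cells in this comparison were used by the rule and come from other lines, so line and fraction cannot be told apart here and no test was made.

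Among members above 1 in all 4 lines, ENSCAFG00000008718 (member 4) had the highest median ratio, 3.56. It stood at 124 and 77.4 CPM in OS-1 cells, 111 and 81.7 in OS-2 cells, 112 and 64.5 in OSCA-78 cells, and 121 and 53.0 in OSCA-8 cells. In exosomes it stood at 394, 372, 364 and 395 CPM in OS-1, 399 and 550.1 in OSCA-8, 330 and 269.7 in OSCA-78, 349 and 358 in OSCA-32, and 99.7 and 99.2 in OS-2. Only in OS-2 did exosomes overlap with cells, with 48 and 45 counts per exosome library. Without the 7 dominant genes its OS-2 exosome level was 225 and 254 CPM, above the OS-2 cells. Between lines its exosome level gave an adjusted p of 0.272 (edgeR).

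ENSCAFG00000009236 (member 5) was next, at a median ratio of 3.11. Its cell levels were 52.1 and 50.6 CPM in OS-2, 85.0 and 67.8 in OS-1, 94.9 and 83.0 in OSCA-8, and 78.4 and 63.8 in OSCA-78. Its exosome levels were 224, 284, 401 and 395 CPM in OS-1, 243 and 252 in OSCA-8, 224 and 272 in OSCA-78, 409.7 and 439.5 in OSCA-32, and 74.8 and 48.5 in OS-2. In OS-1 the replicates with few counts of the dominant genes, 3 and 4, were the high ones. The OS-2 fractions again overlapped. Without the 7 dominant genes its OS-2 exosome level was 168 and 124 CPM, above the OS-2 cells at 52.2 and 50.7 CPM. Between lines its exosome level gave an adjusted p of 0.257 (edgeR).

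Members 1 to 3 had higher medians, 4.84, 4.52 and 4.26, but ratios of 0.336, 0.847 and 0.802 in OS-2. Member 1 stood at 297 to 819 CPM in the exosomes of OS-1, OSCA-78 and OSCA-8 and at 83.1 and 46.3 CPM in those of OS-2, where cells had 148 and 241 CPM. Without the dominant genes its OS-2 exosome levels were 187 and 118 CPM, and they then overlapped with the cells.

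The next question was whether exosomes of the 5 lines differed in these genes. This was tested in a fit of the 12 exosome libraries over all genes. Over lines 13 members passed (edgeR, adjusted p under 0.05), in a table where 15.1% of all 15083 genes did. All 100 members passed the filter on low counts. When each line was set against the rest, OS-2 exosomes had 11 members higher and 3 lower, where 13.2% and 5.83% of all genes were called. OSCA-32 exosomes had 1 higher and 4 lower, where 2.55% and 2.9% of all genes were called. For OSCA-78 0 members were higher and 1 lower, where 0.126% and 0.152% of all genes were called. No member passed in OS-1 exosomes, where 0.0133% of all genes were called higher and 0.232% lower, or in OSCA-8 exosomes, where 0.0796% and 0.0398% were. There 7 and 15 members had an unadjusted p under 0.05, DESeq2 called 1 in each and limma voom called 2 and 11. Of all genes DESeq2 called 0.729% and 0.0862% and limma voom 0.782% and 3.35%. In total 83 members passed in none of these comparisons. The count over lines was 1 with the whole OS-2 line left out, where 0.117% of all genes passed. It fell most, among single libraries left out, without either OS-2 library. The OS-2 count of 14 fell most without OS-2 replicate 2. That of OSCA-32 was smaller without a library of OSCA-32, OS-2 or OSCA-8 or without OSCA-78 replicate 2, and larger without OSCA-78 replicate 3. Each of these single libraries left its line with 1 library, and calls among all genes fell or rose alike. The OSCA-32 count was 8 and 11 without OS-1 replicates 3 and 4, where 7.44% and 9.03% of all genes passed. Without the OS-2 line 0 members and 0 of all genes passed in OSCA-32. Directions depended on the scaling and, in OSCA-32, on the test. There limma voom called 14 higher and 4 lower, the fit with the replicate block 18 and 8, and edgeR with no filter on low counts 7 and 2, so that the direction of the OSCA-32 calls is not settled. With total counts 94 members passed over lines, with 5 higher and 90 lower in OS-2, 47 higher and 3 lower in OSCA-32, 24 higher in OS-1, and 10 higher and 1 lower in OSCA-78. Of all genes 63.1% then passed over lines, 73.4% in OS-2, 27.7% in OSCA-32, 17.6% in OS-1 and 3.71% in OSCA-78. In OS-2 10479 of 15083 genes were then lower, so the shift was not particular to members. With upper quartile scaling OS-2 had 10 members higher and 9 lower, where 20.8% of all genes passed.

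In 4 of the 5 lines the median change of the other abundant genes lay farther from that of all genes than the median of the members, and OSCA-8 was the exception. The distance between the sets was not tested. Scaling shifted the median of all genes in the OS-2 comparison from -0.21 with TMM to -1.85 with total counts. The medians and quartiles of sets given next are therefore relative to the median of all genes. Log2 fold changes of single members are given further below without this step. In OS-2 exosomes the median was 0.07 for members (quartiles -0.24 and 0.40) and 1.31 for the other 2465 abundant genes tested (quartiles 0.51 and 2.35), of which 1264 were called higher and 18 lower with TMM, but 444 higher and 970 lower with total counts. In OSCA-32 exosomes the median was 0.05 for members and -0.50 for the others, of which 17 were called higher and 309 lower with TMM, but 368 higher and 179 lower with total counts. The medians were -0.06 and -0.44 for OS-1, -0.07 and -0.01 for OSCA-8, and -0.04 and -0.40 for OSCA-78. Cell level differs between the sets. Within the lowest of the 5 groups by cell level the OS-2 medians were -0.03 for 51 members and 0.88 for 455 others, and the OSCA-32 medians 0.12 and -0.22. The choice of members drew on exosome levels of OS-1, OSCA-78 and OSCA-8 more than on those of OS-2, which lay below the median ratio for most members, and so bears on the OS-2 comparison. In that of OSCA-32, the choice favoured high levels in the lines it is set against.

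**Figure D3:**
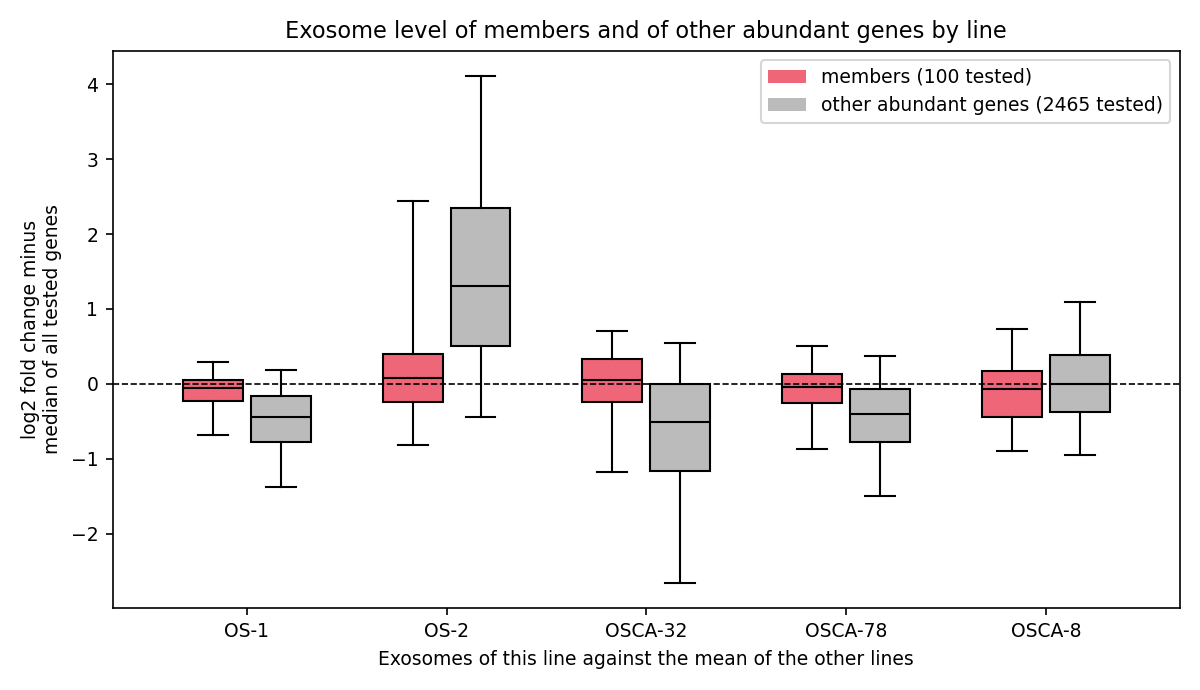
Log2 fold change of exosomes of each line against the mean of the other lines, minus the median of all tested genes, for members (red) and other abundant genes (grey). Boxes give the median and quartiles and whiskers the 5th and 95th percentiles over genes. In OS-2 the grey median is 1.31 and the red 0.07, and in OSCA-32 they are -0.50 and 0.05.

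The 11 members higher in OS-2 exosomes were members 7, 8, 10, 11, 17, 22, 60, 61, 64, 66 and 82. Their summed level was 4897 and 4518 CPM in the OS-2 exosome libraries and 1459 to 3190 CPM in those of other lines. The 86 members without a call in OS-2 summed to 4640 and 4205 CPM there and to 11434 to 19447 CPM in other exosome libraries. Without the dominant genes the sums of the 86 were 10454 and 10760 CPM against 15746 to 19594 CPM, and those of the 11 were 11034 and 11561 CPM against 1483 to 4393 CPM. The sums follow from the calls and are a description.

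Higher here is on the TMM scale. In CPM of all counts both OS-2 libraries lay above all other exosome libraries for 5 of the 11, members 7, 10, 11, 17 and 82, while members 8, 60, 64 and 66 lay below several of them.

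Member 10 is described first, chosen after its values were seen. It stood at 123 to 219 CPM in cells. In exosomes it stood at 970 and 880 CPM in OS-2, 749 and 501 in OSCA-8, 227 and 108 in OSCA-78, 70.7 and 64.2 in OSCA-32, and 579, 673, 100.4 and 104 in OS-1. The high libraries were those in which the 7 dominant genes took 13.7% or more of the counts, and OSCA-78 replicate 2 was the lowest of these. Member 7 stood at 901 and 871 CPM in OS-2, 437 and 435 in OSCA-8, 187 and 108 in OSCA-78, 92.7 and 91.4 in OSCA-32, and 328, 389, 60.6 and 93.0 in OS-1, with the same libraries high and low. Member 17 likewise had 802 and 701 CPM in OS-2, 455, 417, 69.0 and 79.4 in OS-1, and 73.2 and 56.8 in OSCA-32. The part of the dominant genes in these differences was not tested. Member 82, last of these by rank, had 679 and 646 CPM in OS-2 and 31.7 and 69.1 in OSCA-32, with 80.6 to 191 in cells. Its log2 fold change in OS-2 exosomes, 4.26 (SE 0.50, adjusted p = 2.68e-05, edgeR), was the largest of the 11, which began at 0.88 for member 66. Members 22, 61, 64 and 66 did not show this order of libraries. Member 61 stood at 235 and 176 CPM in OS-2, 183 and 217 in OSCA-32, and 81.1, 130, 197 and 154 in OS-1. Member 64 stood at 103.8 and 101.4 CPM in OS-2 and 205 and 190 in OSCA-32, and member 66 at 97.6 and 128 in OS-2 and 237 and 227 in OSCA-32. Member 22 also differed from member 10, with 330 and 315 CPM in OS-2, 290.2 and 288.9 in OSCA-32 and 154 to 234 in OS-1.

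OSCA-32 exosomes, with few counts of the dominant genes, had members 7, 8, 10 and 21 lower and member 16 higher. The log2 fold changes were -2.49 for member 7, -1.11 for member 8, -3.33 for member 10, -1.42 for member 21 and 0.95 for member 16, with adjusted p of 0.0198 to 0.0485 (edgeR). Members 7, 8 and 10 were among those higher in OS-2, but OS-2 is part of the mean that OSCA-32 was set against, and without the OS-2 line none of these calls was made. Member 16 stood at 512 and 521 CPM in OSCA-32 exosomes, 441 and 447 in OS-1 replicates 3 and 4, 174 and 191 in OS-1 replicates 1 and 2, and 54.0 and 57.3 in OS-2. Its high libraries were those with the smallest shares of the dominant genes, whose part in this was not tested. Member 13 was lower in OS-2, at 43.6 and 35.3 CPM against 154 to 405 in other exosomes (log2 fold change -1.16, SE 0.34, adjusted p = 0.0137, edgeR).

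Of the members called lower in the exosomes of a line, ENSCAFG00000007343 (member 11) had the smallest adjusted p. In OSCA-78 exosomes it stood at 62.2 and 105 CPM, with 20 and 43 counts. In the other exosomes it stood at 561 and 428 CPM in OS-2, 235, 293, 146 and 154 in OS-1, 168 and 209.9 in OSCA-32, and 412 and 361 in OSCA-8. Its log2 fold change was -2.25 (SE 0.41, adjusted p = 0.00731, edgeR) in OSCA-78 exosomes against the others. It was 2.99 (SE 0.29, adjusted p = 4.03e-09, edgeR) in OS-2 exosomes. Both OSCA-78 libraries lay below all other exosome libraries, and OS-2 above. Without OSCA-78 exosome replicate 2 or 3 the log2 fold change was -2.08 or -2.50 and no longer passed (adjusted p = 0.10 and 0.256, edgeR). A line left with 1 library is taken to vary like the other groups. Without the OS-2 line its log2 fold change was -1.60 with an adjusted p of 0.0692 (edgeR). Cells of OS-2 were also the highest, at 160.3 and 194 CPM against 83.8 to 145 CPM in other cells (log2 fold change 0.80, SE 0.21, adjusted p = 0.0492, edgeR).

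ENSCAFG00000013247 (member 75, median ratio 1.37) was lower in OS-2 exosomes. It stood there at 41.5 and 28.7 CPM, with 20 and 13 counts. In other exosomes it stood at 216, 239, 257 and 340.4 CPM in OS-1, 266 and 282 in OSCA-32, 161 and 129 in OSCA-8, and 208 and 434 in OSCA-78, so that OS-2 lay below all of them. Its log2 fold change was -1.15 (SE 0.33, adjusted p = 0.0132, edgeR). OS-2 cells, at 110.2 and 102 CPM, lay within the range of the other cells, 83.7 to 252 CPM, and did not pass (adjusted p = 0.388, edgeR). Without OS-2 exosome replicate 1 it was -1.32 (adjusted p = 0.0666, edgeR) and without replicate 2 -1.01 (adjusted p = 0.143, edgeR), a like size that did not pass with 1 OS-2 library, whose spread was taken from the other groups.

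**Figure D4:**
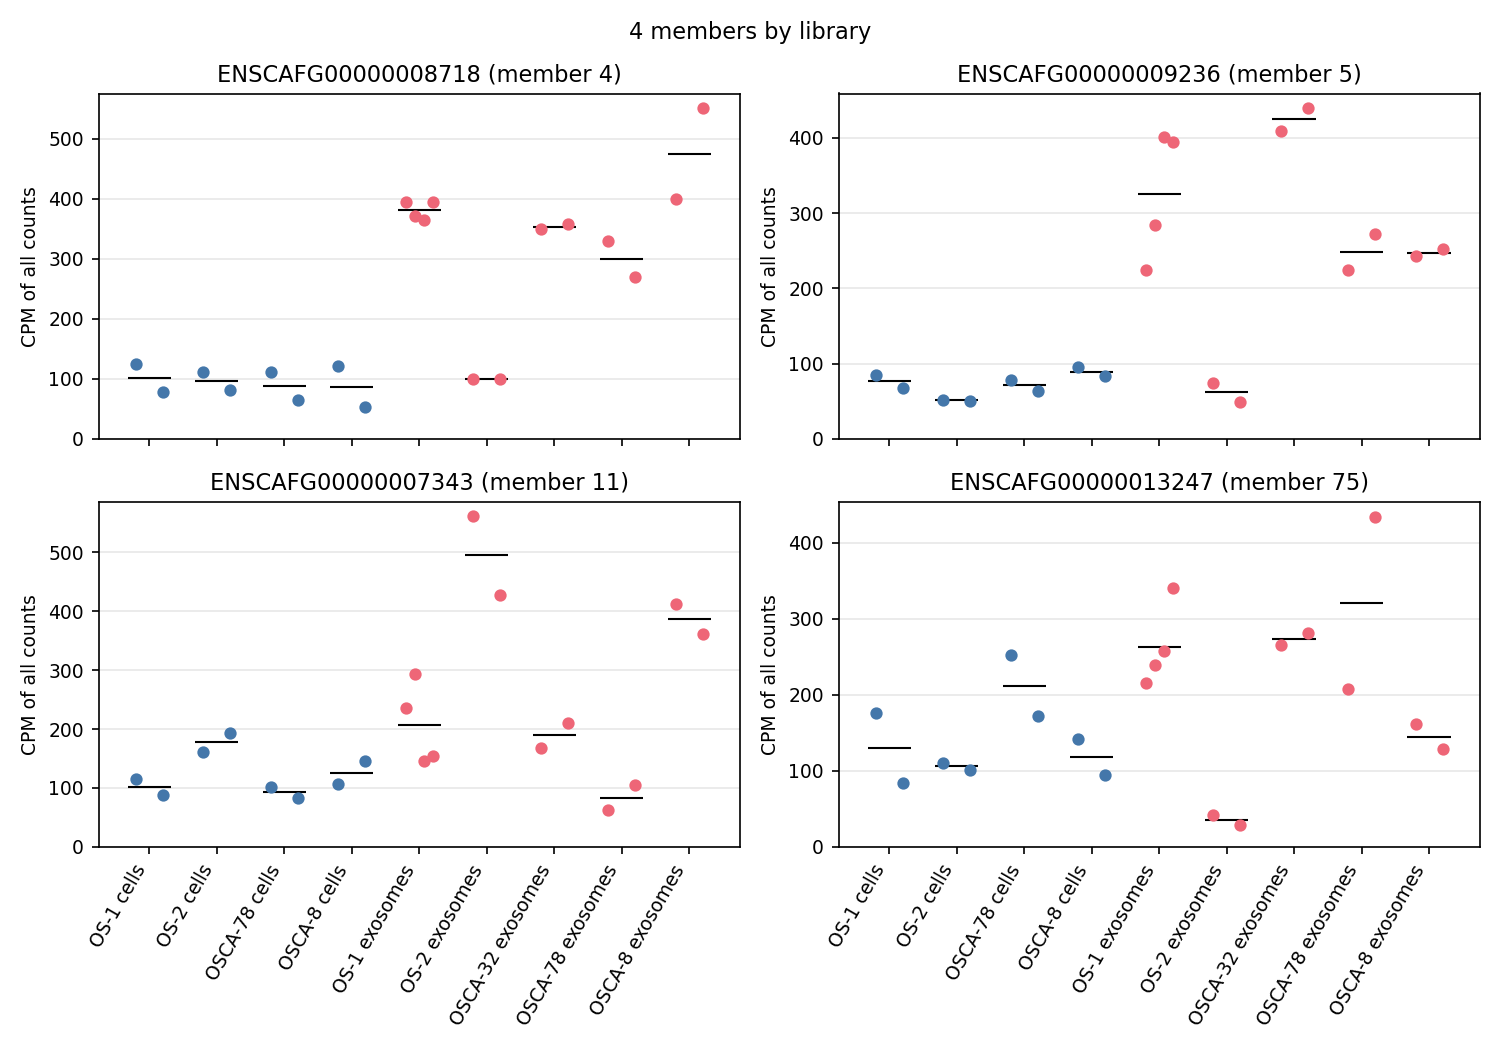
CPM of all counts (y axis) of 4 members in each library by line and fraction. Points are libraries, blue for cells and red for exosomes, and bars are means. Members 4 and 5 lie above cells in all exosomes but those of OS-2, member 11 is high in OS-2 and low in OSCA-78 exosomes, and member 75 is low in OS-2 exosomes.

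The next values describe the range between lines and carry no test, since the rule set a minimum in cells and none in exosomes, and since the dominant genes lower the OS-2 exosome CPM. The highest line mean was 1.57 times the lowest for the median member in cells and 4.01 times in exosomes of the same 4 lines, and for the other abundant genes 1.60 and 2.63 times. In exosomes OS-2 was the lowest of the 4 lines for 92 members. In the fit of 8 cell libraries 1 member passed over lines (edgeR), where 3.39% of all 14148 genes did. That was member 46, chosen here after its values were seen, at 292 and 498 CPM in OS-2 cells and 57.5 to 104 CPM in others. The call was lost without either library of OS-2, OSCA-78 or OSCA-8. Its OS-2 exosomes had 64.4 and 44.1 CPM and the exosomes of other lines 69.0 to 272 CPM.

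OS-2 cells had 10 members higher and 0 lower (edgeR), where 6.92% and 7.12% of all genes were called. On the lower side DESeq2 called 2, limma voom 2 and the fit with the replicate block 1. With the replicate block 19 members were higher. Of all genes DESeq2 called 24.6%, limma voom 22.1% and the fit with the replicate block 21.9% in OS-2 cells, higher or lower. The count of 10 fell most without either OS-2 or OSCA-78 cell library and without OSCA-8 replicate B. Each of these fits left a line with 1 cell library, and fewer of all genes passed in each too. Of the 10, 4 were also among the 11 higher in OS-2 exosomes, 40% of the first list and 36.4% of the second. The same overlap was not computed for all genes, so these shares cannot be read as a trait of the members. No member passed in cells of OS-1, OSCA-78 or OSCA-8 (edgeR). Of all genes 0 passed in OS-1 and OSCA-8, and 0.184% were called higher and 0.0565% lower in OSCA-78. In cells of OS-1, OSCA-78 and OSCA-8, 5, 8 and 7 members had an unadjusted p under 0.05, and DESeq2 called 0, 1 and 1. Of all genes DESeq2 called 2.09%, 6.35% and 4.01%.

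The line with the highest cell level was also that with the highest exosome level for 44 of 100 members and for 38.2% of the other abundant genes. By cells OS-2 was highest for 43 members, and by exosomes for 7. These orders rest on CPM of all counts, in which the dominant genes lower the OS-2 exosome values of all other genes.

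Replicate exosome libraries differed unevenly. Within OSCA-32, OSCA-8 and OS-2 the median chi-square per degree of freedom of members was 0.699, 1.11 and 1.04. Counting error alone gives a mean of about 1 and a lower median, so these replicates too differed by more than counting. The 95% limit of counting error was passed by 11%, 15% and 17% of members. In OS-1 and OSCA-78, whose replicates differed in the share of the dominant genes, the median was 3.50 and 3.87, and 67% and 52% of members passed the limit. Over all 12 exosome libraries the coefficient of variation of the median member was 43.1% with all counts and 30.8% without the dominant genes, and for the other abundant genes 43.5% and 45.0%.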

How the data were processed

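RNA of dog osteosarcoma lines and of their exosomes was sequenced, and the authors deposited the reads as unnormalized counts for each gene in a single table. The submitters' processing notes list kallisto 0.43.0, Trimmomatic 0.33.0 and FastQC 0.11.5 beside a dog and a mouse genome build, with no role or order. How reads were counted, with or without strand, is not given in the sources used here. Genes that overlap or resemble each other closely are therefore uncertain. The 20 columns whose names match a sample were used, and 1 column with no sample label was not. Of 24579 identifiers 0 matched the RefSeq gene table, so no names or sequences are given.

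CPM were computed from the total count of each library, and ratios with a pseudocount of 1 CPM. Differences were tested over all genes with edgeR 4.0.16 (R 4.3.3; quasi-likelihood, robust, TMM, filterByExpr with a minimum count of 10, Benjamini-Hochberg adjusted p under 0.05), 1 fit for 12 exosome libraries, 1 for 8 cell libraries and 1 for the 18 libraries of the lines with both fractions. DESeq2 1.42.0, limma voom 3.58.1, other scalings, no filter, a replicate block and leaving out each library were alternatives. All 100 members passed the filter in each of these fits. The code was tested on simulated data. Exosome and cell fractions went through different preparation steps, which cannot be told apart from the fraction. An exosome library with 0 counts of a gene would allow up to 6.23 to 11.6 CPM (3 counts). No replicates were copies of each other, as their lowest chi-square per degree of freedom over genes was 1.79. Deviations from the line mean correlated between cell libraries with the same letter (0.17 to 0.48). With 2 cell libraries per line, values for different letters only mirror these and add nothing. The same-letter values were positive for every pair of lines, so A and B differed in part alike across lines. The labels do not say what a letter marks, and its source was not tested. With the replicate block OS-2 cells had 20 members called in place of 10, and 21.9% of all genes in place of 14.0%. For exosome libraries with the same number the correlations were -0.04 to 0.30. The main fits had no replicate block, and all cell p-values given are from those fits.

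The members and lists were chosen with earlier results of these data known. Identifiers are printed for the 2 members with the highest median ratio among those above 1 in all 4 lines, and for the 2 with the smallest adjusted p among members called lower in the exosomes of a line. Other members are given by their rank.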

Additional observations from a re-analysis of the deposited data

Results flagged for a closer look

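For the members' summed share, every OS-2 exosome library lay below both OS-2 cell libraries (ratio of means 0.773), while every exosome library of OS-1, OSCA-78 and OSCA-8 lay above the cells of its line. Member 1 split in the same way, with an OS-2 ratio of 0.332. Member 46 had an OS-2 ratio of 0.137, and its exosomes lay above cells in OS-1 and OSCA-78. ENSCAFG00000013247 (member 75) had an OS-2 ratio of 0.332, and its exosomes lay above cells in OS-1. Member 82 went below its cells in OSCA-78 exosomes, at a ratio of 0.633, and above them in OS-2 and OSCA-8. These are ratios of mean CPM without a pseudocount. In these 5 cases libraries of one line moved opposite to those of another, and the difference itself was not tested. The rule that chose the members used these ratios. Among 16 sets of 4 OS-1 values, none had a library past the 95% limit of Dixon's test, which chance passes in about 1 of 20 groups. The test looks for a single outlying library. It could hardly flag a split of OS-1 replicates 1 and 2 from 3 and 4, as in member 10, and so does not show that replicates agree.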

How the results depend on the processing

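Members had medians of 22 to 90 counts per exosome library, and OS-2 calls rest on 2 libraries. Whether depth held back calls was not tested. The cause of each change below was not tested. The number of genes with a median ratio above 1, 207 in all, was 840 and 21 with a cell minimum of 25 and 100 CPM, 72 with TMM sizes, 371 without the 7 dominant genes in the totals, 9 where all 4 lines had to be above 1, and 175 to 237 without each library in turn. The counts of members passing edgeR's test changed as follows. With total counts they were 94 over exosomes of all lines (63.1% of all genes). By line they were 24 in OS-1 (17.6%), 95 in OS-2 (73.4%), 50 in OSCA-32 (27.7%) and 11 in OSCA-78 exosomes (3.71%). With DESeq2 they were 1, 2 and 1 in OS-1, OSCA-78 and OSCA-8 exosomes (0.729%, 0.418% and 0.0862% of all genes). In cells they were 9 over lines (19.2%), 18 in OS-2 (24.6%) and 1 each in OSCA-78 and OSCA-8 (6.35% and 4.01%). With limma voom they were 37 over exosomes (31.0% of all genes) and 5 over cells (11.8%). By line they were 2, 18, 2 and 11 in OS-1, OSCA-32, OSCA-78 and OSCA-8 exosomes (0.782%, 13.35%, 0.564% and 3.35%). In OS-2 cells they were 21 (22.1%). With no filter on low counts they were 9, 2 and 1 in OSCA-32, OSCA-78 and OSCA-8 exosomes (5.93%, 0.760% and 0.664% of all genes) and 3 over cells (4.40%). Without OS-1 exosome replicates 1 to 4 in turn they were 17, 14, 11 and 14 over exosomes (16.5%, 16.8%, 14.9% and 16.7% of all genes). In OSCA-32 exosomes they were 6, 5, 8 and 11 (5.81%, 5.89%, 7.44% and 9.03%). They stayed at 14 in OS-2 (18.7% to 19.7%), at 1 in OSCA-78 (0.257% to 0.347%), and at 0 in OS-1 and OSCA-8 exosomes (0% to 0.661% and 0.0813% to 0.480%). Leaving out any other library left a line with 1 library of that fraction, so those counts are not given.

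With the replicate block the counts were 33 over exosomes (27.1% of all genes) and 3 over cells (9.06%). By line they were 1, 26, 3 and 1 in OS-1, OSCA-32, OSCA-78 and OSCA-8 exosomes (0.630%, 22.7%, 1.30% and 0.922%) and 20 in OS-2 cells (21.9%). The block assumes that a shared letter or number marks a shared preparation, which the labels do not say. Leaving out the OS-2 line gave 1 over exosomes (0.117% of all genes) and 0 over cells (0%). For single lines, a comparison chosen after seeing the data, it gave 0, 0 and 2 in OSCA-32, OSCA-78 and OSCA-8 exosomes (0%, 0.096% and 1.12%). Leaving out OS-1 exosome replicates 3 and 4 and OSCA-78 exosome replicate 3, also chosen after seeing the data, gave 37 over exosomes and 2, 32 and 6 in OS-1, OSCA-32 and OSCA-8 exosomes. Without each library, ENSCAFG00000008718 kept a median ratio of 3.21 to 4.17 and ENSCAFG00000009236 of 2.94 to 3.30. The log2 fold change ran from -2.50 to -2.08 for ENSCAFG00000007343 in OSCA-78 exosomes, 2.91 to 3.08 in OS-2 exosomes, and -1.32 to -1.01 for ENSCAFG00000013247 in OS-2 exosomes.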
